A study of Mus musculus with 6 samples.

Results

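The erythroid genes measured here were 8 genes chosen by name and role, all of them among the 23353 genes of the deposited table. They are the embryonic globins Hbb-bh1, Hba-x and Hbb-y, the transcription factors Gata1, Klf1, Nfe2 and Gfi1b, and the erythropoietin receptor gene Epor. RNA-seq was performed on embryoid bodies (EBs), floating aggregates in which mouse embryonic stem cells (mESCs) differentiate, after 4 days in serum without LIF, the cytokine that holds mESCs undifferentiated. Wildtype EBs came from the W9.5 line, and EVX1-Δfs EBs came from clone 14, derived from W9.5 by CRISPR-Cas9. That clone carries small frameshift deletions in both alleles of Evx1, within the exon that encodes the homeodomain, so it is 1 clone and not a set of independent lines. Each genotype has 3 libraries, from side by side differentiations started on different days.

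The first red blood cells of the mouse embryo form in the yolk sac from mesoderm that has left the posterior primitive streak. Their precursors pass through a haemangioblast stage, which can give blood or endothelium, before the erythroid genes come on. GATA1 and KLF1 activate most genes of the red cell, NFE2 binds the globin enhancers, and GFI1B represses genes of other lineages. Hbb-bh1 and Hbb-y encode beta-type globin chains and Hba-x the alpha-type zeta chain of embryonic haemoglobin. EPOR receives the survival signal of erythropoietin.

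The promoters show what several of these genes share in sequence. Of the 8 genes, 6 had an entry in the RefSeq promoter table (GRCm38.p6), and Hbb-bh1 and Nfe2 had none. The 250 bases before each start were searched on both strands for AGATAA or TGATAA, forms of the site that GATA factors bind, for CACCC, the core of the box that KLF1 binds, and for CCAAT, a common promoter element. No match of one motif overlapped a match of another in these 6 windows. The GATA motif was found in 5 of the 6 promoters, all but that of Gata1, against 16.6% of all 32851 promoters. On NCBIM37 the Gata1 window lies inside the annotated gene, and those of Hba-x, Klf1 and Hbb-y run into theirs, so these windows are not all upstream of the annotated start. CACCC was found in all 6, against 52.0% of all promoters, and CCAAT in 3, against 33.8%. The promoters of Hbb-y, Gfi1b and Epor are printed here, with the matches on either strand in capitals. These 3 windows were chosen as those with the most bases outside the annotated gene. Their genes range from no reads to the highest level. Hbb-y is shown from its far end to the edge of the annotated gene, so the last 33 bases of its window are left out. Positions were found by exact match to NCBIM37 (mm9), and all 3 lie on the minus strand: Hbb-y at chr7:111001755-111001971, Gfi1b at chr2:28477503-28477752 and Epor at chr9:21768021-21768270.
Hbb-y: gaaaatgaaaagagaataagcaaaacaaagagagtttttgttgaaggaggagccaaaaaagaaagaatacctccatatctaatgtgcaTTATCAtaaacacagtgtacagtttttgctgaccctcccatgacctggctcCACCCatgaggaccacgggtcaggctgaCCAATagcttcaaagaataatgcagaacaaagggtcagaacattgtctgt
Gfi1b: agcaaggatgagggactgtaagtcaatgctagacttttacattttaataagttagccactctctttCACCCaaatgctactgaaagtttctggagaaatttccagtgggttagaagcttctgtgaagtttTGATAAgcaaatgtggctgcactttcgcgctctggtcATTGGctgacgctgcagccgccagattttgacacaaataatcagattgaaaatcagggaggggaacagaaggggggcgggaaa
Epor: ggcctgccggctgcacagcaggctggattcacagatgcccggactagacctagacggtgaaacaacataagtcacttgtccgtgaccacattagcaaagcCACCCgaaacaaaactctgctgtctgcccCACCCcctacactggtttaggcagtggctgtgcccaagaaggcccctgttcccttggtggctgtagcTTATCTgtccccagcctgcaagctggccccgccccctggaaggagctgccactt

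These matches are a description of the sequence and not of binding. The promoter of Hbb-y holds all 3 motifs, and its gene had no read in any library.

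Erythroid transcripts were scarce in both genotypes, and in bulk EBs fewer cells of a type and less RNA per cell cannot be told apart. Reads assigned to genes numbered 7597879 to 9914471 per library and 53467457 in all, and the 8 genes took 979 of them. Epor alone took 712 of these reads (72.7%), and the 3 embryonic globins took 27. The values below are normalised read counts (the reads of a gene over a scaling factor for that library), in which 1 read is worth 0.885 to 1.15. A gene was tested if 3 or more libraries held 10 or more normalised counts. Epor (6 libraries at 10 or more), Gata1 (5) and Gfi1b (3) met this. Klf1 and Nfe2 reached 10 in 1 library each and the 3 globins in 0, so these 5 genes were too low to judge.

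Per kb of exon (mean normalised count, 6 libraries), the order was Epor at 64.0, Gata1 at 6.92, Hbb-bh1 at 5.39, Gfi1b at 5.17, Klf1 at 3.66, Nfe2 at 2.42 and Hba-x at 1.06, with Hbb-y at 0. Epor stood apart, with every library between 58.2 and 73.1, while Gata1, the next gene, reached at most 9.71. From Gata1 to Hba-x, each gene's range over the 6 libraries overlapped that of its neighbour in this order. Among the 17626 genes with a read and a known length, Epor lay at percentile 62.9, and the 6 genes from Gata1 to Hba-x lay between percentiles 17.0 and 32.4.

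**Figure D1:**
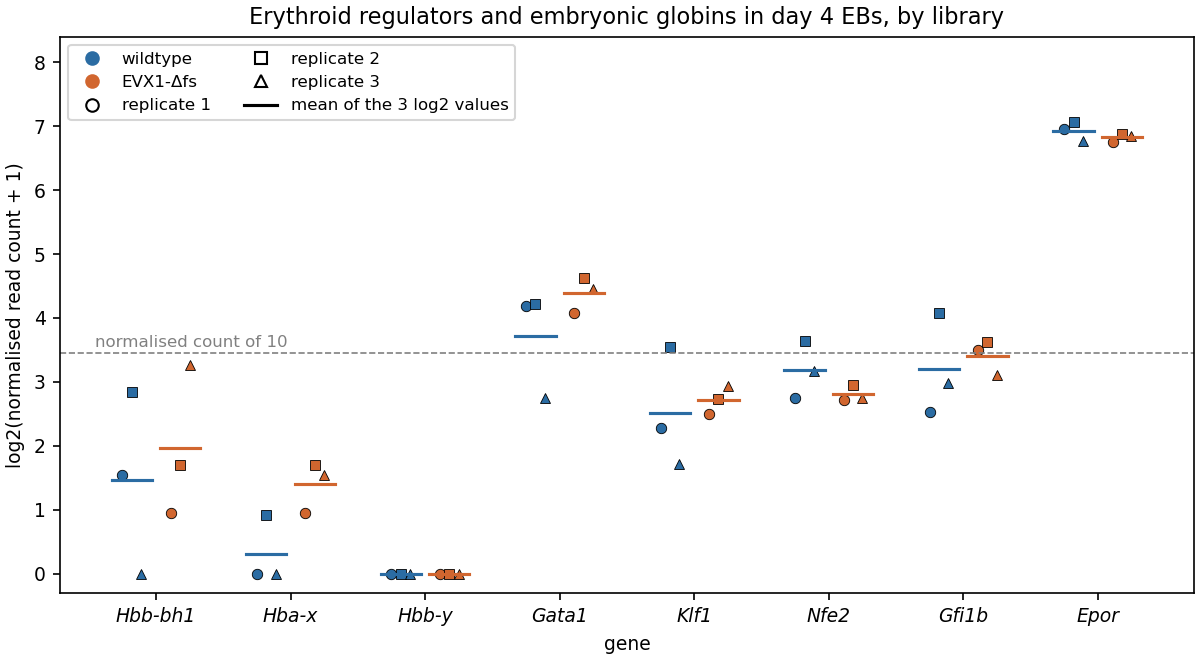
Each point is 1 library, on a log2(normalised read count + 1) axis, for the 8 genes in wildtype (blue) and EVX1-Δfs (orange) EBs; bars are means of the log2 values and the dashed line is a normalised count of 10. Epor is the one gene far above the line in all 6 libraries, and Hbb-y is at 0 in all 6.

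**Figure D2:**
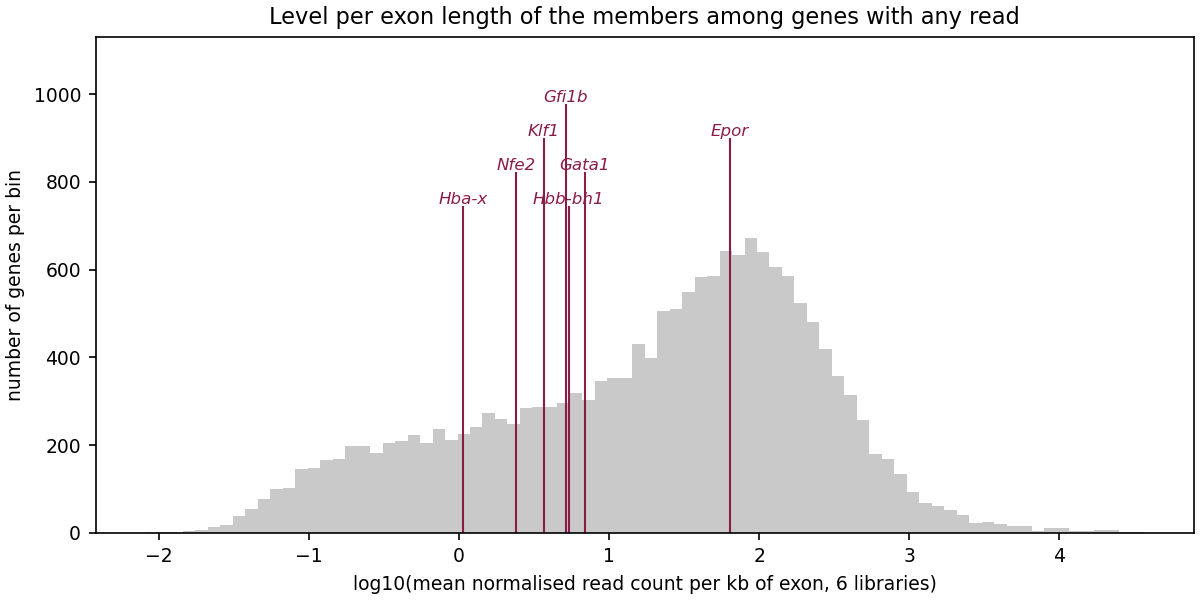
Histogram of the mean normalised read count per kb of exon (log10 axis) for 17626 genes with any read, with 7 of the 8 genes marked by lines; Hbb-y, at 0, cannot be drawn on this axis. Epor lies at percentile 62.9 and the other 6 lie at percentile 32.4 or lower.

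The embryonic globins were examined first, since they define the primitive red cell. Hbb-bh1 (chromosome 7, 110990150 to 110991678 on NCBIM37, minus strand) had 2, 7 and 0 reads in wildtype replicates 1, 2 and 3, and 1, 2 and 9 reads in EVX1-Δfs replicates 1, 2 and 3. The groups overlapped, and each held 1 library with most of its reads. Hba-x (chromosome 11, 32176400 to 32178116, plus strand) had 0, 1 and 0 reads in wildtype and 1, 2 and 2 reads in EVX1-Δfs EBs, so both genotypes included a library with 1 read. Hbb-y (chromosome 7, 111000259 to 111001754, minus strand) had 0 reads in all 6 libraries. A count of 0 allows up to 3 reads, or 0.303 to 0.395 RPM (reads scaled to an equal total for each library) in these libraries, counting error only.

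The read totals of the low genes give only wide limits. For Hbb-bh1 the 9 wildtype and 12 EVX1-Δfs reads, scaled by library, gave an EVX1-Δfs to wildtype ratio of 1.35, with an exact 95% interval of 0.523 to 3.63 that covers counting error only. For Hba-x, with 1 and 5 reads, the ratio was 5.07, with an interval of 0.567 to 240 (239.746). No change in either gene was called, and at this depth changes within these wide intervals cannot be told from none. The adult globin genes Hba-a1, Hba-a2, Hbb-b1 and Hbb-b2, which follow the embryonic ones in development, had 0 reads assigned in all 6 libraries. How reads that match more than 1 of these genes were counted was not tested, so these counts do not show absence.

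Among the transcription factors, Gata1 (chromosome X, 7536386 to 7555197, minus strand) had normalised counts of 17.2, 17.7 and 5.73 in wildtype and 15.9, 23.7 and 21.0 in EVX1-Δfs EBs. Wildtype replicate 3 was far below the other 5 libraries, and the groups overlapped. The means were 13.5 ± 6.78 and 20.2 ± 3.97 (SD, n = 3). The log2 difference, EVX1-Δfs minus wildtype, was 0.67 ± 0.41 (SE), with a 95% interval of -0.18 to 1.52 and a limma adjusted p of 0.339. Gata1 therefore did not pass the test, and the interval still includes changes from 0.880-fold to 2.86-fold. Without wildtype replicate 3 the log2 fold change was 0.18.

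Gfi1b (chromosome 2, 28464970 to 28477502, minus strand) had normalised counts of 4.78, 15.9 and 6.87 in wildtype and 10.3, 11.3 and 7.62 in EVX1-Δfs EBs. The wildtype libraries held both the highest and the lowest values. The means were 9.19 ± 5.92 and 9.72 ± 1.89 (SD, n = 3). EVX1-Δfs minus wildtype, this was a log2 difference of 0.21 ± 0.48 (SE), with a 95% interval of -0.79 to 1.21 and a limma adjusted p of 0.831. Without wildtype replicate 1 its sign turned, to -0.12.

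Klf1 (chromosome 8, 87425827 to 87429194, plus strand) had 4, 12 and 2 reads in wildtype and 5, 5 and 7 reads in EVX1-Δfs EBs. All 3 EVX1-Δfs libraries fell inside the wildtype range. The scaled ratio of reads was 0.957, with an exact 95% counting interval of 0.464 to 1.97. Nfe2 (chromosome 15, 103078643 to 103088834, minus strand) had 6, 13 and 7 reads in wildtype and 6, 6 and 6 reads in EVX1-Δfs EBs. Its ratio was 0.702, with a counting interval of 0.362 to 1.33.

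Epor (chromosome 9, 21763343 to 21768020, minus strand), the one gene of the set at a moderate level, had normalised counts of 123, 134 and 108 in wildtype and 106, 117 and 114 in EVX1-Δfs EBs. The groups overlapped. The means were 122 ± 13.1 and 113 ± 5.61 (SD, n = 3), and the log2 difference was -0.10 ± 0.17 (SE) (limma, adjusted p = 0.758). The 95% interval ran from -0.46 to 0.25, or from 0.729-fold to 1.19-fold, so a fall or a rise of 2-fold lies outside it. With GC content and length trends removed the sign turned, to 0.09.

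**Figure D3:**
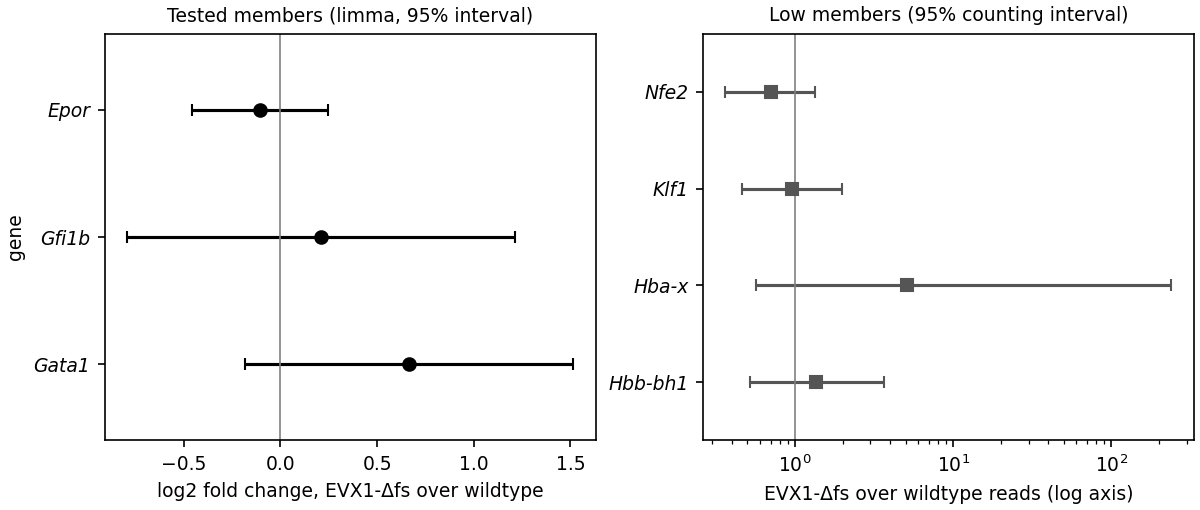
Left, limma log2 fold changes of the 3 tested genes with 95% intervals over 3 libraries per genotype. Right, ratios of reads summed over libraries for the 4 low genes with any read, on a log axis, with exact 95% intervals for counting error only; all 7 intervals include no change.

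Of the 3 tested genes, 0 were called in limma, against 660 of 13136 genes called in the whole table (5.02%). Their unadjusted limma p-values were 0.119 (Gata1), 0.547 (Epor) and 0.668 (Gfi1b). edgeR over all genes with any read gave a value for 7 of the 8 genes and called 0 of them, against 6.33% of the 18245 genes in that fit. The unadjusted edgeR p-values of the 7 ran from 0.181 (Gata1) to 0.959 (Klf1). DESeq2 gave an adjusted p for Epor alone and did not call it. The groups overlapped in all 3 tested genes, and across the table they did not overlap in 26.9% of the genes tested. In so few genes, counts of 0 are near these shares and are no result about the genes. The level of the genes bears on these counts. Among tested genes with a mean normalised count under 20, where Gata1 and Gfi1b lie, 1.38% were called, and the smallest called log2 change was 1.40. Among those from 100 to 200, where Epor lies, 3.77% were called, and the smallest called log2 change was 0.52.

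The order of the libraries within a genotype was uniform at one end only. Wildtype replicate 2 was the highest wildtype library for all 7 genes with reads, while it was the highest for 30.9% of the genes tested. Only 3 of the 7 are among the genes tested, so the sets differ, and the place of Hba-x rests on 1 read. The lowest wildtype library was replicate 3 for 4 genes and replicate 1 for 2, and Hba-x was at 0 in both. Among EVX1-Δfs libraries, replicate 1 was the lowest for 6 genes, but Nfe2 had the same reads in all 3 libraries and Klf1 the same in replicates 1 and 2, so the scaling alone set their order. The highest was replicate 2 for 5 genes, with Hba-x and Nfe2 tied in reads, and replicate 3 for 2. Summed over the 8 genes, the level was 17.4, 22.4 and 13.6 RPM in wildtype and 16.5, 19.7 and 19.9 in EVX1-Δfs EBs. The spread among wildtype libraries covered all 3 EVX1-Δfs values. Genes of the haemangioblast and endothelium had their highest wildtype sum in the same library, at 5195 normalised counts in replicate 2 against 4191 and 4027 in replicates 1 and 3. Their part in the erythroid values was not tested.

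The genes around the set were taken from 12 lists. The table called 2.95% of genes lower and 2.08% higher in EVX1-Δfs EBs, with a median log2 fold change of 0.00 over all genes tested. Some genes stand in more than 1 list. Counting each gene once, 91 were tested, of which 11 were called lower and 2 higher. Upper-quartile scaling gave 11 lower and 8 higher.

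Partners of the erythroid factors had 3 calls among 19 tested genes, all lower, with a median log2 fold change of -0.30. Gata2, the GATA factor of blood progenitors, fell from 244 ± 40.9 to 126 ± 33.5 normalised counts (SD, n = 3), or by 0.96 on the log2 scale (limma, adjusted p = 0.00408). Lmo2, the bridging subunit of the GATA-TAL1 complex, fell by 0.64 on the log2 scale (limma, adjusted p = 0.0167). Zfpm1, which encodes the GATA1 cofactor FOG1, fell by 0.44 on the log2 scale (limma, adjusted p = 0.0337), but had an adjusted p of 0.0694 with the replicate block. Tal1, with a log2 fold change of -0.49, did not pass (limma, adjusted p = 0.0947).

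Of 12 tested haemangioblast and endothelial genes, 5 were called lower and 0 higher, with a median log2 fold change of -0.60. Gata2 and Lmo2 of these 5 are the same genes already counted among the partners, and 3 were further calls. Etv2, which drives mesoderm to blood and endothelium, fell from 630 ± 51.1 to 295 ± 43.1 normalised counts (SD, n = 3), or by 1.10 on the log2 scale (limma, adjusted p = 4.94e-05). Kdr, the VEGF receptor that marks haemangioblasts, fell by 0.91 on the log2 scale (limma, adjusted p = 2.03e-04), and Eng, a TGF-beta co-receptor, by 0.50 (limma, adjusted p = 0.0182). The genes of this list were chosen with earlier results of these libraries known, and the study itself names Kdr, so the count is not independent evidence of its direction.

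Genes of haem synthesis, iron handling and erythropoietin signalling had 0 calls. With 5.02% of all tested genes called, 0 in lists of this size is near the share over the table and is no result about these genes. Of 9 tested genes of haem synthesis 0 were called, with a median log2 fold change of -0.08. Alad and Urod, enzymes of the pathway that all cells use, had log2 fold changes of -0.33 and -0.36. The erythroid enzyme Alas2, which supplies the first step in red cells, reached at most 7.89 normalised counts and was not tested. Of 10 genes of iron uptake and storage 0 were called, with a median of 0.06, and the ferritin chains Ftl1 and Fth1 had log2 fold changes of 0.08 and -0.10. Ireb2, an iron-sensing RNA-binding protein, had one of 0.43 (limma, adjusted p = 0.0572). Of 12 genes of erythropoietin and KIT signalling 0 were called, with a median of 0.01, and Stat5b, Bcl2l1 and Kit had log2 fold changes of -0.13, -0.28 and 0.35. Epo, the ligand of EPOR, had at most 3.83 normalised counts in a library.

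Of 7 tested genes of the red cell membrane and maturation, 1 was called higher and 0 lower, with a median log2 fold change of 0.08. With the replicate block 0 were called. Sptb and Epb4.1, spectrin and band 4.1 genes, had log2 fold changes of 0.08 and 0.02. Rhag and Car1 had 0 reads throughout.

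Markers of other cells were taken alongside. Of 8 genes of other blood lineages, Ptprc, Gp1bb and Pf4 had 0 reads in all 6 libraries, and of 3 tested 0 were called. Itga2b, an early blood and platelet integrin, had a log2 fold change of 0.25, Mpo, a myeloid granule enzyme, one of -0.16, and Sfpi1, the myeloid factor PU.1, one of 0.01. The sum of this list ran from 56.1 to 98.2 normalised counts in wildtype and from 85.8 to 99.2 in EVX1-Δfs EBs. Of the 7 visceral endoderm genes only Cubn passed the filter, and the list summed to 12.4 to 44.7 in wildtype and 36.1 to 56.2 in EVX1-Δfs EBs. Of 7 pluripotency genes 0 were called, against 5.02% of all genes tested, with a median of 0.40. Pou5f1, Sox2 and Nanog had log2 fold changes of -0.04, 0.41 and 0.40. Of the 7 genes, 6 had positive values and 1 a negative one. Sox2, Nanog, Zfp42 and Esrrb narrowly missed the threshold (limma, adjusted p = 0.0559, 0.0552, 0.0544 and 0.0544), so 0 calls do not show that nothing changed. The study, using DESeq2, lists Nanog among its upregulated genes. Of 6 genes of the primitive streak and posterior mesoderm 5 were called lower, with Hand1, Mesp1 and Mixl1 at -1.28, -1.02 and -0.84, and T and Eomes at -0.58 and -0.50. This list too was chosen with earlier results of these libraries known. The study itself names Hand1, Mesp1, Mixl1 and Eomes as lower, so the count is not independent evidence of its direction. With the replicate block T and Eomes had limma adjusted p of 0.0566 and 0.0586. Evx1 itself stood at 2311 ± 119 normalised counts (SD, n = 3) in wildtype EBs, against 2294 ± 258 in EVX1-Δfs EBs, but a count cannot show a frameshift.

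**Figure D4:**
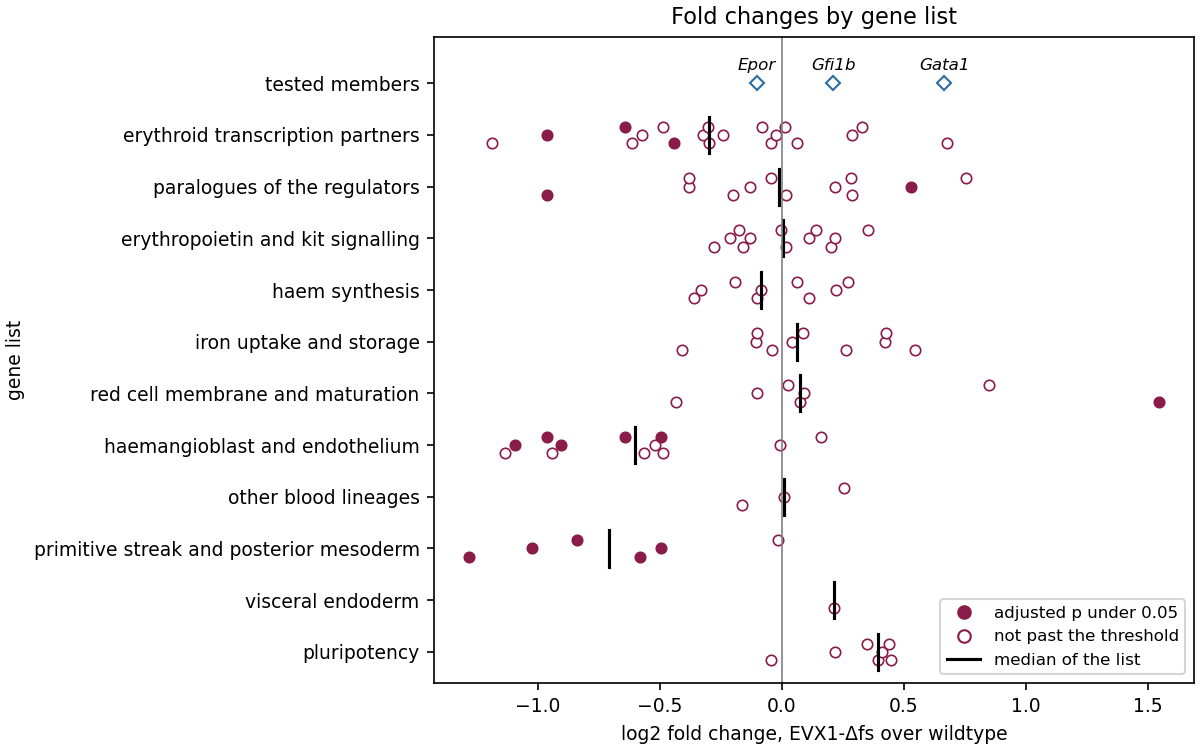
Each point is a tested gene, at its limma log2 fold change of EVX1-Δfs over wildtype; filled points had an adjusted p under 0.05, short bars are list medians, and diamonds are the 3 tested erythroid genes. The 12 haemangioblast and endothelial genes have a median of -0.60, and Epor, Gfi1b and Gata1 lie at -0.10, 0.21 and 0.67.

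Some of these calls lay close to the threshold and were lost when a library was left out, with no change of sign. Etv2, Kdr, Gata2, Mixl1, Mesp1 and Hand1 were called whichever of the 6 libraries was left out, and with GC and length trends removed. Lmo2 lost its call when wildtype replicate 2 or EVX1-Δfs replicate 1 was omitted (limma, adjusted p = 0.0799 and 0.0759), with log2 fold changes of -0.75 to -0.49 over the 6 fits. T lost its call without EVX1-Δfs replicate 1 (limma, adjusted p = 0.0748), with log2 fold changes of -0.70 to -0.48. Zfpm1 kept its call only without EVX1-Δfs replicate 2 (limma, adjusted p = 0.0550 to 0.196 in the other fits), while its log2 fold change ran from -0.54 to -0.33. Eng kept its call in 2 fits, those that omitted wildtype replicate 3 and EVX1-Δfs replicate 2 (limma, adjusted p = 0.0506 to 0.0836 in the others), while its log2 fold change stayed between -0.54 and -0.46. Eomes lost its call without any one of wildtype replicate 3, EVX1-Δfs replicate 1 and EVX1-Δfs replicate 3 (limma, adjusted p = 0.0547, 0.0665 and 0.0786), with log2 fold changes of -0.60 to -0.37. With the GC and length trends removed, Lmo2, Zfpm1, Eng, Eomes and Klf6 were not called (limma adjusted p from 0.0545 for Eomes to 0.420 for Zfpm1).

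The paralogues of the regulators gave 1 call in each direction among 12 tested genes, with a median log2 fold change of -0.01. Klf6 rose from 705 ± 41.5 to 1024 ± 130 normalised counts (SD, n = 3), or by 0.53 on the log2 scale (limma, adjusted p = 0.0149), which was 0.0840 without EVX1-Δfs replicate 3. The gene called lower was again Gata2. Nfe2l1, a relative of Nfe2 expressed in most tissues, had a log2 fold change of -0.13.

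Gata1 and Gata2 were then set side by side within each library, a pair chosen after their values were seen. In developing red cells GATA1 takes the place of GATA2 at shared sites. Per 100 normalised counts of Gata2 there were 8.33, 6.15 and 2.42 of Gata1 in wildtype and 16.5, 14.6 and 17.5 in EVX1-Δfs EBs. All 3 EVX1-Δfs libraries lay above all 3 wildtype ones. Gata2 alone already separated the genotypes, so dividing by it favoured this outcome, and the ratio is not evidence of a change in Gata1. Across the table, 26.9% of tested genes did not overlap between genotypes. Whether GATA1 took the place of GATA2 here was not tested. The means were 5.63 ± 2.99 and 16.2 ± 1.46 (SD, n = 3), given as a description with no test. Of the pair, Gata2 was called lower and Gata1 was not called. The ratio is not corrected for gene length.

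**Figure D5:**
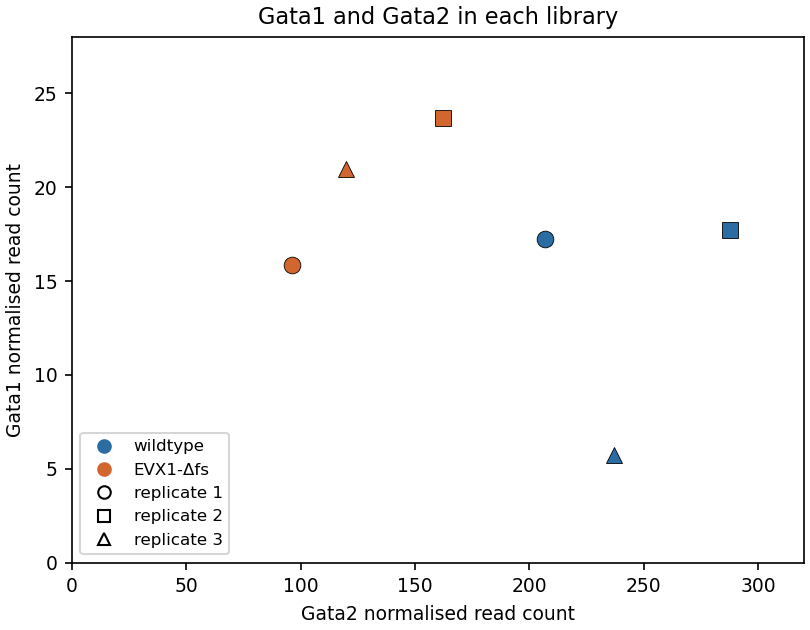
Normalised read counts of Gata1 against Gata2, 1 point per library, in wildtype (blue) and EVX1-Δfs (orange) EBs, with both axes from 0. Gata2 separates the genotypes, at 207 to 288 against 96.2 to 162, while the Gata1 values overlap.

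Genes with the most similar profile over the 6 libraries were listed for the 3 tested genes, as a description, since the points share library depth and 6 values over 13136 genes give high correlations by number alone. For Gata1 they were 1810032O08Rik, Itga7 and Vegfa (Pearson's r of 0.995, 0.995 and 0.994). For Gfi1b they were Sgk3 and Fam13a (0.972 and 0.966), and a gene listed under a number in place of a symbol. For Epor they were Lrrfip1, Lrp1 and Col5a1 (0.992, 0.990 and 0.988). None of the 9 genes was called between genotypes.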

How the data were processed

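RNA-seq of 6 libraries (3 wildtype, 3 EVX1-Δfs, day 4 EBs) was used. The authors describe mRNA libraries read on an Ion Proton, alignment to mm9 by TopHat2 followed by TMAP, and HTSeq counting with standard settings. DESeq2 is named in the submitters' processing notes. Versions and annotation are not given in the sources used here. The deposited values are a signal: the read count of a gene over a scaling factor for that library. Whole reads were recovered for 100% of values (tolerance 0.01 reads), and the factors lay within 0.00577% of DESeq2 size factors. Totals were 7597879 to 9914471 reads.

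The test was limma 3.58.1 (trend) on log2(normalised count + 1) (fold changes are on this scale, where a larger pseudocount gives smaller values for low genes), over 13136 genes with at least 10 in 3 libraries, Benjamini-Hochberg adjusted and called under 0.05. DESeq2 1.42.0 and edgeR 4.0.16 (quasi-likelihood) ran on recovered reads in R 4.3.3. The members and gene lists were chosen with earlier results of these data known. Named genes were the 8 members, the called genes of each list, list genes of the highest mean up to 3 in all, and the 3 most correlated genes for each tested member. Tal1, Alas2, Epo, Zfp42, Esrrb and genes at or near 0 reads were named outside this rule, after their values were seen. Some list genes are counted but not reported by name here.

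Per the series' design text, each side by side differentiation had its own day, so the replicate number was taken to pair libraries. The main test used genotype alone and left this pairing out. It entered only the fits with the replicate block. Same-numbered libraries correlated in their deviations at 0.111, 0.00933 and -0.101 (13136 genes). Positions, lengths and GC content came from GENCODE vM1 on NCBIM37, which matched 94.1% of symbols, 774 of them through an older symbol. Alternatives removed natural-spline trends (5 degrees of freedom) on GC content and length.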

Additional observations from a re-analysis of the deposited data

How the results depend on the processing

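The number of erythroid genes called was 0 in all 17 alternatives, replicate block included. Most of these kept the filter of the main fit, so in them only Gata1, Gfi1b and Epor could be called. Of 87 alternative values of the 7 genes with reads, 79 kept their sign, and the adjusted p-values ran from 0.211 to 0.999. DESeq2 gave none for the genes other than Epor. Without the filter, limma gave Hba-x an unadjusted p of 0.0460 and an adjusted p of 0.262. Epor turned to 0.0873 with GC and length trends removed, and to the same value with the replicate block in addition. For Gata1, 0.67 in limma, edgeR over all genes gave 0.53 and DESeq2 0.55, and for Gfi1b, 0.21 in limma, they gave 0.05 and 0.06. Klf1, near 0 on either side, was -0.0337 in edgeR over all genes and -0.0077 in DESeq2. Across the fits that left out 1 library, log2 fold changes ran from -0.224 to 1.20 for Hbb-bh1, from -0.180 to 0.730 for Klf1 and from -0.122 to 0.653 for Gfi1b. For genes below the filter, the fits with the block or without a library were added after seeing the data. The calls over the table, 660, became 1155 in edgeR over all genes, 222 with the replicate block, 257 with GC and length trends removed, 140 with both, and 222 (without EVX1-Δfs replicate 3) to 655 without 1 library. The 13 calls over the lists became 24 in edgeR over all genes, 7 with the block and trends removed, and 7 (without EVX1-Δfs replicate 1) to 15 without 1 library. Upper-quartile scaling called 370 genes higher and 325 lower over the table, and 8 higher and 11 lower over the lists. For all of these the cause was not tested. Apart from Zfpm1, T and Eomes, the block changed no call named here. Depth limits most the 5 genes too low to judge, which had 0 to 13 reads in a library. It also limits Gata1 and Gfi1b, which had 5 to 22 and 5 to 18 reads in a library.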
